A study of Mus musculus with 7 samples.

Results

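Complement is a set of plasma proteins, most of them made in the liver, together with the receptors and surface inhibitors that act with them. The genes described here are 34 named members of that system and of the collectins and ficolins, the lectins that start it on sugars, out of 23347 genes in the count table. They were taken by name, and every one had a row in the table. Liver RNA came from 7 male C57BL/6 mice, 6 to 8 weeks old when they were put on the CDAHFD, a high-fat diet without choline and with defined amino acids that brings on steatohepatitis, and kept on it for 15 weeks. The 4 *B4galt1* flox/flox mice, labelled WT, carried *B4galt1* flanked by recombination sites and no Cre. The 3 *B4galt1* hep-/- mice, labelled B4galt1-HKO, carried the same floxed alleles and Cre under the albumin promoter. That promoter is active in hepatocytes, so that macrophages are not targeted. Controls were littermates, each mouse gave 1 library, and chow-fed mice were not analysed here.

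Complement can be started in 3 ways. In the classical pathway the C1 complex, made of the recognition protein C1q and the proteases C1r and C1s, binds antibody and cleaves C4 and C2. In the lectin pathway mannose-binding lectins, collectins or ficolins bind sugars on microbes or damaged cells, and the proteases MASP-1 and MASP-2 do the cleaving. The alternative pathway runs through factor B, factor D and properdin. All of them cleave C3 and then C5, whose fragments C3a and C5a attract and activate leukocytes through receptors, and C5b gathers C6, C7, C8 and C9 into the membrane attack complex. Hepatocytes are the main source of most plasma components, whereas C1q is made by macrophages, which in liver are the resident Kupffer cells and recruited monocyte-derived cells. Most complement proteins carry N-glycans, the structures to which the B4GALT1 enzyme adds galactose. The data are RNA levels and hold no measurement of glycans or of complement proteins.

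Total counts were 37838654 to 39668509 in *B4galt1* flox/flox libraries and 30608271 to 34586588 in *B4galt1* hep-/- libraries. Counts per gene were divided by the library total and scaled to CPM with edgeR's TMM factors, and 15179 genes passed the filter on low counts. The targeted gene did not separate the groups. *B4galt1* was at 48.7 to 53.0 CPM in *B4galt1* flox/flox livers and at 28.4, 23.9 and 53.7 CPM in *B4galt1* hep-/- replicates 1 to 3, so the groups carry the names of their labels and nothing here checks the deletion in replicate 3. Mitochondrially encoded transcripts took 3.88 to 8.0% of counts in *B4galt1* flox/flox livers and 14.4 to 22.6% in *B4galt1* hep-/- livers. The 9 hepatocyte markers were abundant in every library, summing to 94055 to 135112 CPM and 102365 to 164912 CPM, and none of them was called between the groups. They were not even, however, with 4 log2 fold changes below 0 and 5 above. These ran from -0.85 for *Cps1* to 0.70 for *Apoa1*, which was higher in every *B4galt1* hep-/- liver than in any control. Of the adipocyte markers *Adipoq* and *Plin1* together stayed at or below 0.0329 CPM in every mouse.

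Complement RNA differed between the groups mostly in one direction. Of the 34 genes, 33 passed the filter and 1, *Cfd*, did not. Calls needed an absolute log2 fold change over 0.58 and a p under 0.05 in edgeR's quasi-likelihood test after Benjamini-Hochberg (BH) adjustment over all tested genes, the thresholds of the study. By that rule 10 genes were lower and 1 was higher in *B4galt1* hep-/- livers. The 10 were *C1qb*, *C1qc*, *C3ar1*, *C1rl*, *C3*, *C6*, *C8b*, *C4bp*, *Masp1* and *Clu*, and the higher gene was *Cd55*. Among all tested genes 7.83% were called lower and 8.0% higher. The median log2 fold change was -0.36 over the 33 genes and 0.02 over all tested genes, and 26 of the 33 lay below 0. In 12 of the 33 all 3 *B4galt1* hep-/- livers were below all 4 *B4galt1* flox/flox livers, a pattern seen in 15.0% of all tested genes, and in 2 they were all above, a pattern seen in 13.6%. On FPKM, whose totals include the mitochondrial transcripts, limma on log2(FPKM + 1) gave 24.5% of all calls as higher against 50.5% with TMM, and the median over its genes was -0.14. That fit differs in test and gene filter as well as in scaling. It called 11 of the complement genes lower and none higher, and 15.8% of all its genes lower.

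Set apart by the cell that makes them, the 5 macrophage-made genes had a median log2 fold change of -1.17 and 3 of them fell, whereas the 20 hepatocyte-made genes had a median of -0.35 and 6 of them fell. None of either group was called higher, though 2 of the 20 hepatocyte-made genes had a log2 fold change above 0. *Fcna*, which Kupffer cells make, was placed with the remaining genes, and with it the macrophage-made median was -0.90. The remaining 9 genes, of other or mixed source, had 1 lower and 1 higher call among the 8 tested and a median of 0.38. These sources were assigned from general knowledge of liver, not from these libraries, and no test was made of one source against another. In whole liver, fewer cells of a type and less RNA of a gene in each of them cannot be told apart.

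**Figure D1:**
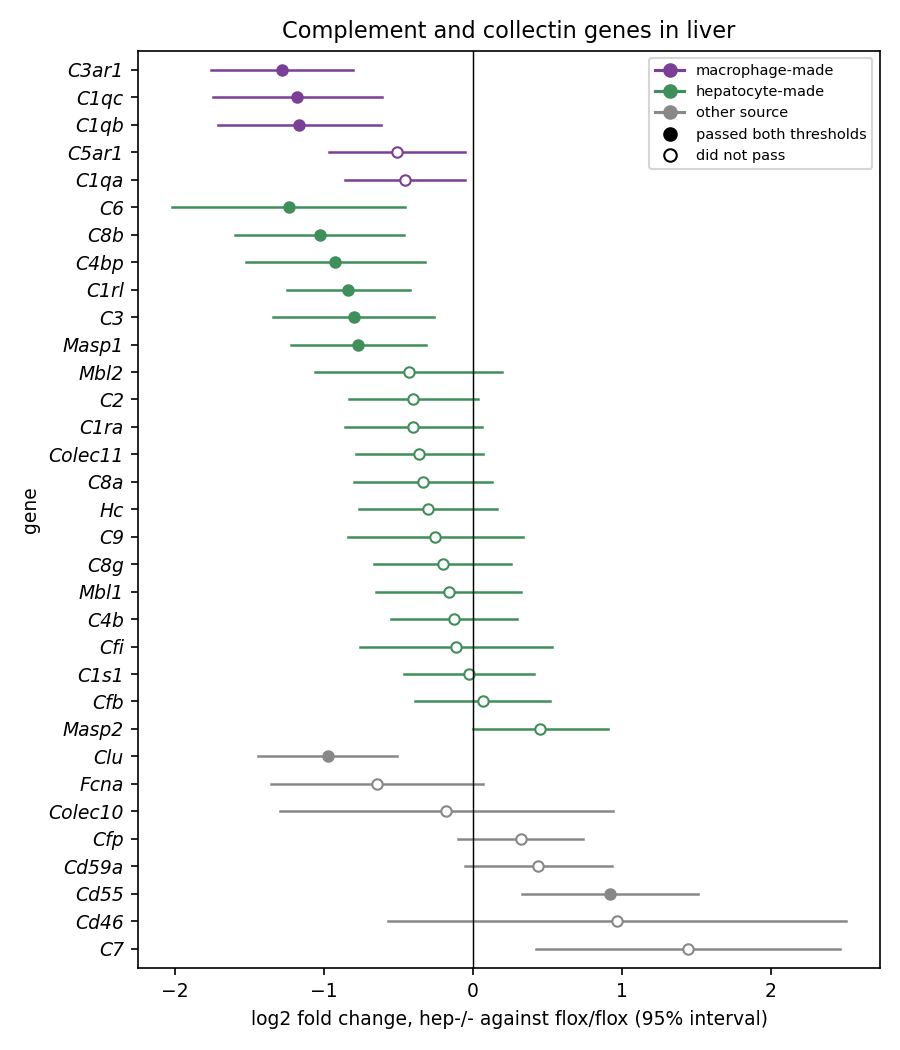
Log2 fold change of each of the 33 tested genes, B4galt1 hep-/- against B4galt1 flox/flox livers, with its 95% interval from the edgeR fit. Colours give the source assigned to each gene, and filled points passed both thresholds. The macrophage-made genes lie between -1.28 and -0.45, the hepatocyte-made genes between -1.24 and 0.45.

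The classical recognition protein C1q is built from A, B and C chains in equal number, encoded by *C1qa*, *C1qb* and *C1qc*, which are neighbours in the genome. *C1qb* was at 164, 134, 211 and 115 CPM in *B4galt1* flox/flox replicates 1 to 4 and at 56.9, 65.0 and 86.8 CPM in *B4galt1* hep-/- replicates 1 to 3. No *B4galt1* hep-/- liver reached the lowest control, and the mean was 44.6% of the control mean. The log2 fold change was -1.17 (standard error (SE) 0.25, edgeR BH-adjusted p = 0.0128). *C1qc* was at 132, 110.3, 163 and 98.5 CPM in *B4galt1* flox/flox livers and at 45.3, 44.7 and 77.1 CPM in *B4galt1* hep-/- livers, and fell by 1.18 on the log2 scale (SE 0.26, edgeR BH-adjusted p = 0.014). The groups were again apart, and *B4galt1* hep-/- replicate 3 lay nearest to the controls for both chains. *C1qa* was at 131, 113, 131 and 122 CPM in *B4galt1* flox/flox livers and at 76.5, 91.5 and 103 CPM in *B4galt1* hep-/- livers. Its groups did not overlap either, but its log2 fold change of -0.45 did not pass (95% interval -0.86 to -0.053, edgeR BH-adjusted p = 0.109). *C1qa* passed in 1 alternative, limma on log2(FPKM + 1), with a log2 fold change of -0.58.

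Because the chains are counted in the same mouse, their ratios do not depend on how libraries are scaled. Counts of *C1qb* over *C1qa* were 1.25, 1.19, 1.62 and 0.947 in *B4galt1* flox/flox livers and 0.744, 0.711 and 0.840 in *B4galt1* hep-/- livers. The ratio of *C1qc* to *C1qa* was 1.01, 0.979, 1.25 and 0.809 against 0.592, 0.489 and 0.746. In both ratios every *B4galt1* hep-/- liver was below every control, so the B and C chain transcripts were fewer relative to the A chain. By contrast *C1qb* over *C1qc* was 1.24, 1.21, 1.29 and 1.17 in *B4galt1* flox/flox livers and 1.26, 1.45 and 1.13 in *B4galt1* hep-/- livers, and these values overlapped. These ratios, and those of other genes given below, were chosen after the values had been seen and are given without a test.

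The anaphylatoxin receptors *C3ar1* and *C5ar1* are carried by myeloid cells. *C3ar1*, the receptor of C3a, had the lowest adjusted p of all 33 genes. It was at 39.9, 39.0, 58.2 and 32.7 CPM in *B4galt1* flox/flox livers and at 19.1, 17.0 and 16.4 CPM in *B4galt1* hep-/- livers. The *B4galt1* hep-/- values were close together, with a coefficient of variation of 7.97%, and all were below the controls. The log2 fold change was -1.28 (SE 0.22, edgeR BH-adjusted p = 0.00581). *C5ar1*, the receptor of C5a, was at 20.9, 18.1, 25.5 and 17.1 CPM and 12.1, 17.0 and 14.0 CPM. Its groups lay side by side without overlapping, and its log2 fold change of -0.51 did not pass (edgeR BH-adjusted p = 0.115). *C1qb*, *C1qc* and *C3ar1* were called in all 17 alternatives, with log2 fold changes from -1.49 to -0.99 over the 3 genes.

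Macrophage markers moved with these genes. Of 12 markers, 6 were called lower (*Adgre1*, *Cd68*, *Gpnmb*, *Lyz2*, *Marco* and *Trem2*) and none higher, and 11 had a log2 fold change below 0. Their summed level was 1802 to 4036 CPM in *B4galt1* flox/flox livers and 911 to 1013 CPM in *B4galt1* hep-/- livers. Every marker was detected in every mouse, and *Timd4*, at 0.0603 to 1.03 CPM, was the lowest of them. The summed C1q chains, at 336 to 505 CPM against 179 to 267 CPM, came to 0.179, 0.149, 0.125 and 0.186 of the marker sum in *B4galt1* flox/flox livers and 0.190, 0.221 and 0.264 in *B4galt1* hep-/- livers. These shares did not overlap, nor did those of *C1qa* alone, at 0.0324 to 0.0676 against 0.0814 to 0.102. They rested on *Lyz2* and *Gpnmb*, the most abundant markers. Without these 2, a choice made after seeing the data, the shares overlapped, at 0.365 to 0.510 against 0.323 to 0.538 for C1q and 0.0945 to 0.156 against 0.138 to 0.208 for *C1qa*. Of the other lists 1 of 5 endothelial markers, *Kdr*, was lower, and none of the tested stellate, cholangiocyte, neutrophil or lymphocyte markers was called. The part of macrophage number in the lower C1q and *C3ar1* levels was not tested.

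**Figure D2:**
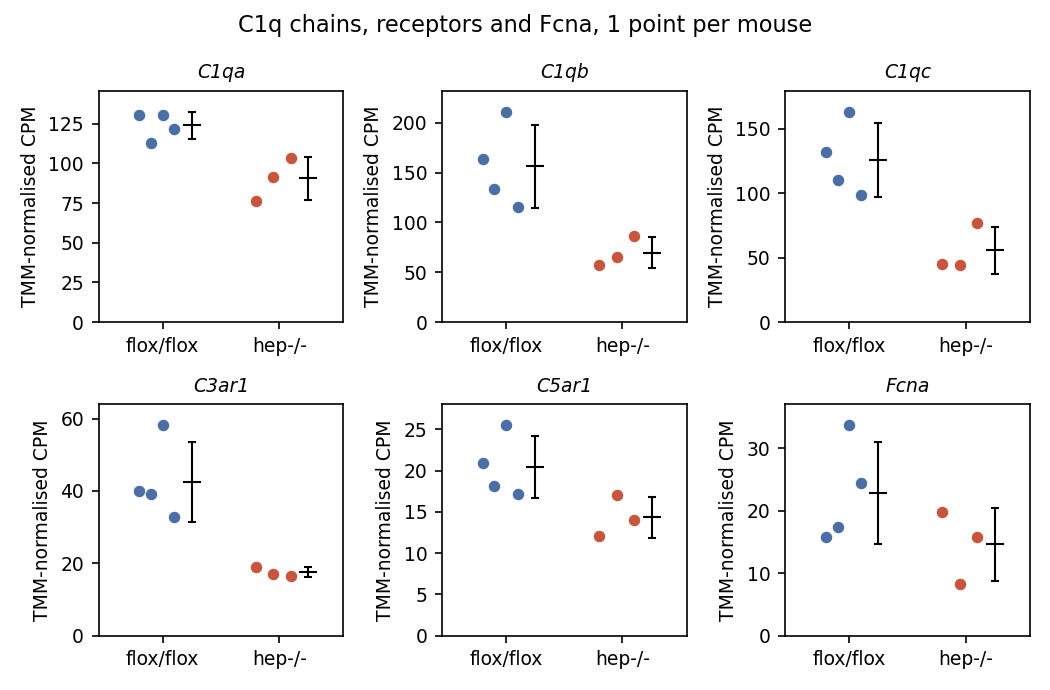
TMM-normalised CPM of the C1q chains, the anaphylatoxin receptors *C3ar1* and *C5ar1*, and *Fcna*, with 1 point per mouse and the mean ± SD beside each group (4 flox/flox and 3 hep-/- livers). The hep-/- livers lie below all flox/flox livers in every panel but *Fcna*.

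Promoter sequences are shown for the macrophage genes that fell in every alternative. They are the 250 bases before the gene start in RefSeq on the mouse build GRCm38.p6, printed 5′ to 3′ on the strand of the gene. The counts themselves were made on GRCm39, so the coordinates serve only to place the sequence. Capitals mark a match to GAGGAA, the core bound by the myeloid factor PU.1, or to TATAAA, the letters of a core promoter element, on either strand.

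*C1qb* (chr4:136886201-136886450, minus strand): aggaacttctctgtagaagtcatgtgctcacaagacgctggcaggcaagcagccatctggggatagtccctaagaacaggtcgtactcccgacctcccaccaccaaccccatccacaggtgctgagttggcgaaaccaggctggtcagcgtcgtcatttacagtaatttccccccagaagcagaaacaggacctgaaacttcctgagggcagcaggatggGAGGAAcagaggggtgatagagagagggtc
*C1qc* (chr4:136892915-136893164, minus strand): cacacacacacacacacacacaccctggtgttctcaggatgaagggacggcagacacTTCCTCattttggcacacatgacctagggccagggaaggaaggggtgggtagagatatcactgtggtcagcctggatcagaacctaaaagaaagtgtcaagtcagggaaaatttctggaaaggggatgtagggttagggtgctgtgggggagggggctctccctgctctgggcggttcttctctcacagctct
*C3ar1* (chr6:122856158-122856407, minus strand): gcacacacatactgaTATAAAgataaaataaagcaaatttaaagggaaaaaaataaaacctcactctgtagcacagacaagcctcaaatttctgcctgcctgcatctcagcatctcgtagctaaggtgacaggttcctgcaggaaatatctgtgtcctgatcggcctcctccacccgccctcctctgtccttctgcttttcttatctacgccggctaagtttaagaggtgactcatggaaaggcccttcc

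GAGGAA stood 30 bases before the start of *C1qb* on the strand of the gene, and in *C1qc* it stood 193 bases before the start on the other strand, where it reads as its reverse complement. The same letters occur in 23.3% of all 32851 windows of this length. *C3ar1* had no GAGGAA in its window and 1 TATAAA, 235 bases before the start, letters that 12.4% of windows hold. A promoter was found for 26 of the 34 genes, *C1qa* not among them. GAGGAA occurred in 2 of the 4 macrophage-made genes with a window and in none of the 15 hepatocyte-made genes. It also occurred in 2 of the 7 genes of other source, *Fcna* and *Cd59a*, which made 4 of all 26. A match is only a stretch of letters and was not tested for binding.

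Of the classical pathway protease genes *C1ra*, *C1s1* and *C2* none was called, and *C1rl*, listed with them, fell. *C1rl*, a protease related to C1r, was at 93.7, 115, 88.5 and 96.6 CPM in *B4galt1* flox/flox livers and at 60.1, 46.4 and 58.8 CPM in *B4galt1* hep-/- livers. The groups were well apart, and its log2 fold change was -0.84 (SE 0.19, edgeR BH-adjusted p = 0.0152). It lost the call without *B4galt1* flox/flox replicate 2, at -0.76, and in no other fit with a mouse left out. Its genomic neighbours did not pass. *C1ra*, which encodes C1r, was at 246 ± 11.5 CPM (SD over 4 mice) and 186 ± 46.6 CPM (SD over 3 mice), with all *B4galt1* hep-/- livers below all controls and a log2 fold change of -0.40 (95% interval -0.86 to 0.061). *C1s1*, which encodes C1s, was at 432 ± 42.5 CPM (SD over 4 mice) and 424 ± 64.8 CPM (SD over 3 mice), a log2 fold change of -0.025 with a 95% interval of -0.46 to 0.41, and its sign changed with upper-quartile scaling. The ratio of *C1s1* to *C1ra* counts was 1.82, 1.61, 1.69 and 1.90 in *B4galt1* flox/flox livers and 2.35, 2.56 and 2.05 in *B4galt1* hep-/- livers, without overlap. *C2*, which C1s cleaves, had a log2 fold change of -0.40 (edgeR BH-adjusted p = 0.183). Near copies *C1rb* and *C1s2* were almost silent, with 105 and 35 counts over all mice.

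*C3*, the component on which all 3 pathways meet, was the most abundant of the genes per unit of length, at 1244 ± 117 (SD, n = 4) TMM-normalised FPKM (CPM over the gene length in kilobases) in *B4galt1* flox/flox livers. It was at 6514, 6788, 6999 and 5618 CPM in *B4galt1* flox/flox livers and at 3575, 2992 and 4599 CPM in *B4galt1* hep-/- livers. The highest *B4galt1* hep-/- liver, replicate 3, remained below the lowest control, replicate 4. *C3* fell to 57.4% of the control mean, a log2 fold change of -0.80 (SE 0.25, edgeR BH-adjusted p = 0.0478). The call was narrow, since it was lost in every fit that dropped a mouse other than *B4galt1* hep-/- replicate 3, with log2 fold changes from -0.86 to -0.67 and adjusted p from 0.0605 to 0.119. It was also lost with the filter of 1 count in any mouse (edgeR BH-adjusted p = 0.0954). *C4b* was the steadiest of the 34 genes among controls, at 851, 844, 811 and 842 CPM, and *B4galt1* hep-/- livers had 747, 699 and 857 CPM. Its log2 fold change of -0.12 did not pass. *C4a*, the near copy of *C4b*, had no row, so reads of both may be counted under *C4b*. *Hc*, the mouse gene for C5, was at 483, 619, 539 and 575 CPM and 435, 369 and 544 CPM, overlapping, with a log2 fold change of -0.30 (edgeR BH-adjusted p = 0.343).

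The terminal genes moved unevenly. *C6* was at 139, 68.6, 83.2 and 112 CPM in *B4galt1* flox/flox livers and at 30.6, 26.3 and 71.3 CPM in *B4galt1* hep-/- livers. *B4galt1* hep-/- replicate 3 lay above *B4galt1* flox/flox replicate 2, and the other 2 *B4galt1* hep-/- livers lay below all controls. Its log2 fold change of -1.24 passed (SE 0.36, edgeR BH-adjusted p = 0.0382), but it did so in only 1 of the 7 fits with a mouse left out, the one without *B4galt1* hep-/- replicate 3, where it was -1.83. In the other 6, log2 fold changes were from -1.40 to -0.98 and adjusted p from 0.0507 to 0.104. *C9*, the pore-forming component, was at 222, 398, 269 and 444 CPM and 305, 218 and 316 CPM, with overlap and a log2 fold change of -0.25. *C7*, a terminal component with sources outside the hepatocyte, was low, at 8.42, 3.06, 5.55 and 2.60 CPM in *B4galt1* flox/flox livers and 6.75, 23.7 and 9.70 CPM in *B4galt1* hep-/- livers. Its log2 fold change of 1.44 missed the threshold (edgeR BH-adjusted p = 0.0554) and passed it with DESeq2, at 1.45, and in 4 other alternatives. Without *B4galt1* hep-/- replicate 2 it was 0.74 (edgeR BH-adjusted p = 0.291). *B4galt1* hep-/- replicate 2, with the highest *C7*, also had the highest sum of 4 cholangiocyte markers, 73.0 CPM against 14.0 to 38.6 CPM in controls, whose part in the *C7* level was not tested.

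C8 is assembled from α, β and γ chains encoded by *C8a*, *C8b* and *C8g*, of which *C8a* and *C8b* are genomic neighbours. *C8b* fell, from 139, 138, 101 and 152 CPM in *B4galt1* flox/flox livers to 60.7, 43.4 and 90.7 CPM in *B4galt1* hep-/- livers. The log2 fold change was -1.03 (SE 0.26, edgeR BH-adjusted p = 0.0241). Its call was lost without *B4galt1* flox/flox replicate 2 or 4 or *B4galt1* hep-/- replicate 1 or 2, where log2 fold changes were -1.02 to -0.81. *C8a* was at 270.3, 304, 251 and 352 CPM and 278, 191 and 231 CPM, and *C8g* at 182, 190.1, 194 and 261 CPM and 189, 146 and 203 CPM. Neither passed, with log2 fold changes of -0.33 and -0.20, and both overlapped between the groups. Counts of *C8b* over *C8a* within a mouse were 0.513, 0.453, 0.403 and 0.433 in *B4galt1* flox/flox livers and 0.218, 0.228 and 0.392 in *B4galt1* hep-/- livers. *B4galt1* hep-/- replicates 1 and 2 had 0.218 and 0.228 β chain counts for each α chain count, below every control, and replicate 3 was just under the lowest control. The ratio of *C8g* to *C8a* overlapped, at 0.674, 0.626, 0.773 and 0.742 against 0.680, 0.767 and 0.879.

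The promoters of the 2 neighbouring C8 genes, 1 called and 1 not, are shown with that of *C3*. Capitals mark TTGCNNAA, a site of the liver factor C/EBP in which N is any base, or GTTAAT, the half-site of the liver factor HNF1, on either strand.

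*C3* (chr17:57228137-57228386, minus strand): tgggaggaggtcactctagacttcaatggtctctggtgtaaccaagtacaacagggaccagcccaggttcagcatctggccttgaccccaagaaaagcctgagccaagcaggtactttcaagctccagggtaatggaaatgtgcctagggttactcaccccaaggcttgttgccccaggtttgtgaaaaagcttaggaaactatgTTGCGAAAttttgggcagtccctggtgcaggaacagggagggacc
*C8a* (chr4:104876399-104876648, minus strand): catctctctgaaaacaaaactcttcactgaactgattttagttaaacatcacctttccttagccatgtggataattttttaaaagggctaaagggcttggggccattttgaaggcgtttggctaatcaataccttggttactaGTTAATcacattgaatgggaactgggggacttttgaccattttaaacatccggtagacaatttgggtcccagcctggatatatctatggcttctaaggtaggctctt
*C8b* (chr4:104766067-104766316, plus strand): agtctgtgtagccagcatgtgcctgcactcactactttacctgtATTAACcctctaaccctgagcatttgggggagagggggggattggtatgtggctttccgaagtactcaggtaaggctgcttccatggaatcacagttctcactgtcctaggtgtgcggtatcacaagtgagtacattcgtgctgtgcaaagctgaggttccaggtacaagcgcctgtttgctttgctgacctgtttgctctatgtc

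*C3* had the C/EBP letters 45 bases before its start, as 9.56% of all windows do somewhere. GTTAAT, held by 6.43% of windows, stood 107 bases before the start of *C8a*. In *C8b* it stood 206 bases before the start on the other strand. Of the 15 hepatocyte-made genes with a window, 4 held the C/EBP letters and 5 the HNF1 half-site, and none of the 4 macrophage-made genes held either. Of the 7 genes of other source, 2 held the half-site, *C7* and *Cfp*, and none the C/EBP letters. Among the 8 genes called lower that had a window, 2 held the C/EBP letters and 2 the half-site. The HNF1 letters thus occurred in *C8b*, which fell, and in *C8a*, which did not pass.

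**Figure D3:**
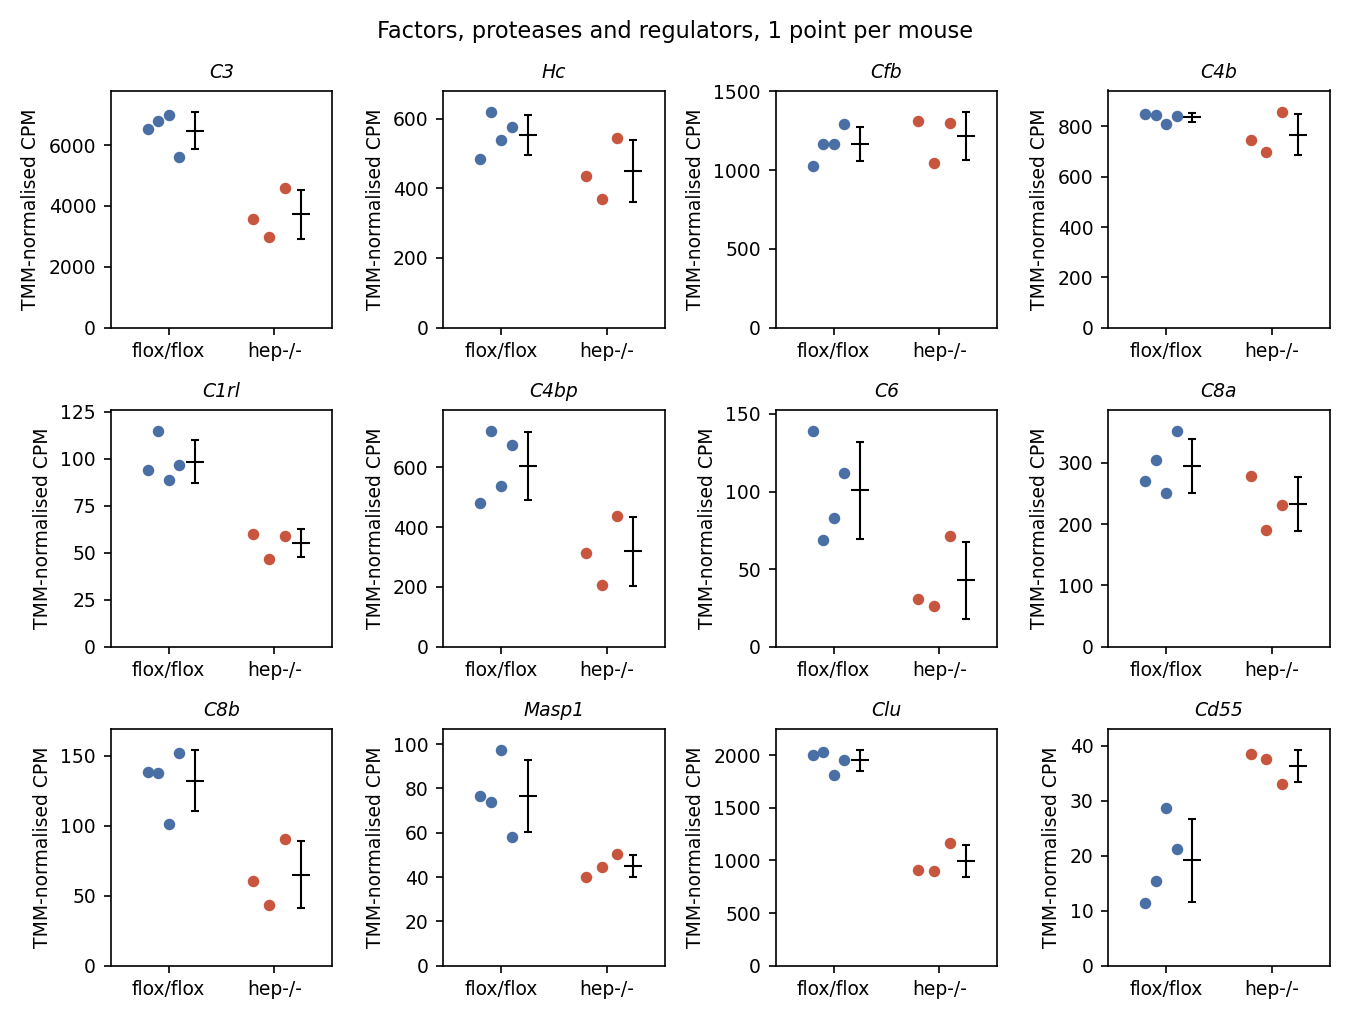
TMM-normalised CPM of 12 factors, proteases and regulators, with 1 point per mouse and the mean ± SD beside each group (4 flox/flox and 3 hep-/- livers). *C3*, *C1rl*, *C4bp*, *C8b*, *Masp1* and *Clu* have no overlap between the groups with hep-/- lower, *Cd55* has none with hep-/- higher, and *Hc*, *Cfb*, *C4b*, *C6* and *C8a* overlap.

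Of the alternative pathway, no gene was called. *Cfb*, which encodes factor B, was at 1029, 1167, 1165 and 1294 CPM in *B4galt1* flox/flox livers and at 1309, 1044 and 1301 CPM in *B4galt1* hep-/- livers. The values were interleaved, and the log2 fold change of 0.066 had a 95% interval of -0.39 to 0.52, with a sign that turned on FPKM. *Cfp*, which encodes properdin, a stabiliser of the convertase made by leukocytes, was at 35.4 ± 5.73 CPM (SD over 4 mice) and 44.3 ± 6.72 CPM (SD over 3 mice) (log2 fold change 0.32, edgeR BH-adjusted p = 0.267). *Cfd*, the gene of factor D, which cleaves factor B and is made mainly in fat, had 15 counts over all 7 mice. It gave 0, 2, 4 and 7 counts in *B4galt1* flox/flox livers and 1, 0 and 1 in *B4galt1* hep-/- livers, too few to test. A library's limit for a count of 0, taken as 3 counts, was 0.0690 to 0.0848 CPM in *B4galt1* flox/flox and 0.0905 to 0.0987 CPM in *B4galt1* hep-/- livers, for counting error alone.

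The soluble regulators split. Factor I, encoded by *Cfi*, is the protease that degrades C3b and C4b, and C4b-binding protein, encoded by *C4bp*, is the cofactor that presents C4b to it. *C4bp* fell, from 482, 722, 536 and 676 CPM in *B4galt1* flox/flox livers to 312, 208 and 436 CPM in *B4galt1* hep-/- livers (log2 fold change -0.92, SE 0.27, edgeR BH-adjusted p = 0.0421). It kept the call without *B4galt1* flox/flox replicate 1 or *B4galt1* hep-/- replicate 3, and in the other 5 fits with a mouse left out the adjusted p was 0.0659 to 0.111 and the log2 fold change -0.98 to -0.69. *Cfi* did not pass, at 434, 709.7, 569.8 and 726 CPM and 539.5, 348 and 806 CPM, a log2 fold change of -0.11 whose sign turned without *B4galt1* hep-/- replicate 2. Both genes were lowest in *B4galt1* hep-/- replicate 2. Counts of *Cfi* over *C4bp* were nonetheless narrow within each group, 0.899, 0.983, 1.06 and 1.07 in *B4galt1* flox/flox livers and 1.73, 1.67 and 1.85 in *B4galt1* hep-/- livers. In each *B4galt1* hep-/- liver *Cfi* thus outweighed its cofactor gene by more than in any control, a ratio picked after the values had been seen and not tested. *Clu*, the gene of clusterin, which holds back the membrane attack complex and also serves as a chaperone, was at 2007, 2034, 1815 and 1951 CPM in *B4galt1* flox/flox livers and 913, 899 and 1168 CPM in *B4galt1* hep-/- livers. It fell by 0.97 on the log2 scale (SE 0.21, edgeR BH-adjusted p = 0.014) and was called in all 7 fits with a mouse left out.

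**Figure D4:**
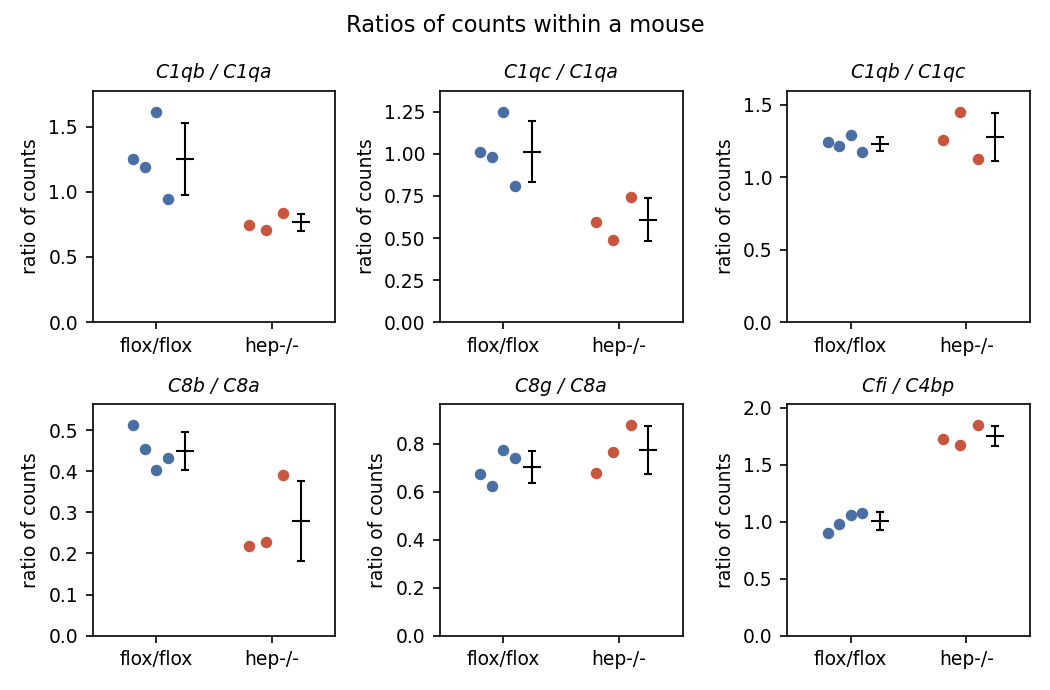
Ratios of counts within a mouse, with 1 point per mouse and the mean ± SD beside each group (4 flox/flox and 3 hep-/- livers). *C1qb* and *C1qc* relative to *C1qa*, and *C8b* relative to *C8a*, are lower in every hep-/- liver than in any flox/flox liver, *Cfi* relative to *C4bp* is higher, and *C1qb* relative to *C1qc* and *C8g* relative to *C8a* overlap.

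In the lectin pathway the recognition genes did not pass and 1 of the 2 proteases fell. *Mbl1* and *Mbl2* encode the mannose-binding lectins. *Mbl1* was at 133, 147, 114 and 173 CPM in *B4galt1* flox/flox livers and 148, 93.4 and 138 CPM in *B4galt1* hep-/- livers, and *Mbl2* at 43.7, 35.5, 30.9 and 69.3 CPM and 36.0, 23.3 and 40.4 CPM. Both overlapped, with log2 fold changes of -0.16 and -0.43, and that of *Mbl1* turned without *B4galt1* hep-/- replicate 2. *Colec11*, a collectin gene, was at 49.6 ± 7.90 CPM (SD over 4 mice) and 38.7 ± 6.09 CPM (SD over 3 mice), with a log2 fold change of -0.36 (edgeR BH-adjusted p = 0.222). Its relative *Colec10* ranged from 4.55 to 17.1 CPM in controls alone, and its log2 fold change of -0.18 changed sign in 4 alternatives. *Fcna*, the gene of ficolin A, which Kupffer cells make, was at 15.7, 17.4, 33.7 and 24.5 CPM and 19.8, 8.29 and 15.7 CPM. The groups overlapped and its log2 fold change of -0.64 did not pass (edgeR BH-adjusted p = 0.193).

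*Masp1* was at 76.8, 73.9, 97.3 and 58.0 CPM in *B4galt1* flox/flox livers and at 40.1, 44.5 and 50.2 CPM in *B4galt1* hep-/- livers. All *B4galt1* hep-/- livers were below all controls, and the log2 fold change was -0.77 (SE 0.21, edgeR BH-adjusted p = 0.0302). The call was lost without *B4galt1* flox/flox replicate 2 or 3 or *B4galt1* hep-/- replicate 1 or 2, where log2 fold changes were -0.79, -0.63, -0.70 and -0.76. The gene gives rise to several proteins by alternative splicing, MASP-1 and MASP-3 among them, which a count per gene does not tell apart. *Masp2*, the protease that cleaves C4 and C2 in this pathway, lay the other way, at 238, 199, 157 and 250.1 CPM in *B4galt1* flox/flox livers and 301, 285 and 279 CPM in *B4galt1* hep-/- livers. Every *B4galt1* hep-/- liver exceeded every control, but the log2 fold change of 0.45 did not pass (95% interval -0.00041 to 0.90, edgeR BH-adjusted p = 0.152). *Masp1* counts over *Masp2* counts were 0.323, 0.371, 0.622 and 0.232 in *B4galt1* flox/flox livers and 0.133, 0.156 and 0.180 in *B4galt1* hep-/- livers. These ratios could not overlap, since *Masp1* was below and *Masp2* above all controls in every *B4galt1* hep-/- liver. *Masp2* overlaps *Tardbp* and *Masp1* overlaps *Rtp4* on the opposite strand in the GENCODE annotation of GRCm38, as *C8g* does *Fbxw5*, and *C2* and *Cfb* share *Gm20547* on their own strand. Counts of these genes are uncertain to that degree, since whether counting used strand is not given in the sources used here.

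Inhibitors on the cell surface protect host cells from complement. *Cd55*, whose product takes C3 convertases apart, was the 1 gene called higher. It was at 11.4, 15.4, 28.7 and 21.2 CPM in *B4galt1* flox/flox livers and at 38.4, 37.5 and 33.0 CPM in *B4galt1* hep-/- livers. The *B4galt1* hep-/- values were near one another and all above the controls, which varied by 39.2% of their mean. The log2 fold change was 0.92 (SE 0.27, edgeR BH-adjusted p = 0.0402). The call held without *B4galt1* flox/flox replicate 3 and was lost in the other 6 fits with a mouse left out, with log2 fold changes of 0.74 to 0.98 and adjusted p of 0.0541 to 0.111. It was also lost on log2(FPKM + 1), at 0.66, and on log2(FPKM + 0.1), at 0.85. *Cd59a*, which blocks the membrane attack complex, had 43.2 ± 9.76 CPM (SD over 4 mice) and 58.6 ± 12.1 CPM (SD over 3 mice) (log2 fold change 0.44, edgeR BH-adjusted p = 0.198). *Cd46*, a cofactor of factor I that in mice is found chiefly in testis, was at 0.414, 0.527, 0.211 and 0.339 CPM and 0.357, 1.63 and 0.197 CPM and could not be placed in either direction. The near copies *Cd55b* and *Cd59b* had 5 and 321 counts over all mice.

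Levels between genes were compared per unit of length, as TMM-normalised FPKM, with lengths implied by the deposited FPKM. In *B4galt1* flox/flox livers the order began with *C3* at 1244, *Clu* at 869 and *Cfb* at 420.3, and these 3 did not overlap with the gene that followed each. *C4bp* at 311 and *Cfi* at 289 came next, within each other's spread. From *C8g* at 175 to *C1s1* at 139, neighbours in the order overlapped, and *C1qb* at 141, *C1qa* at 115 and *C1qc* at 112 stood among the hepatocyte factors. *C3ar1* at 9.88, *C5ar1* at 7.95 and *Cd55* at 2.49 were near the bottom, with *Cd46* at 0.122 and *Cfd* at 0.0926 last. In *B4galt1* hep-/- livers *Clu* at 442 and *Cfb* at 439.8 were level. *C1qb* went from place 9 to place 14 of 34, *C1qc* from 12 to 16, *C1qa* from 11 to 10 and *Masp2* from 16 to 11.

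**Figure D5:**
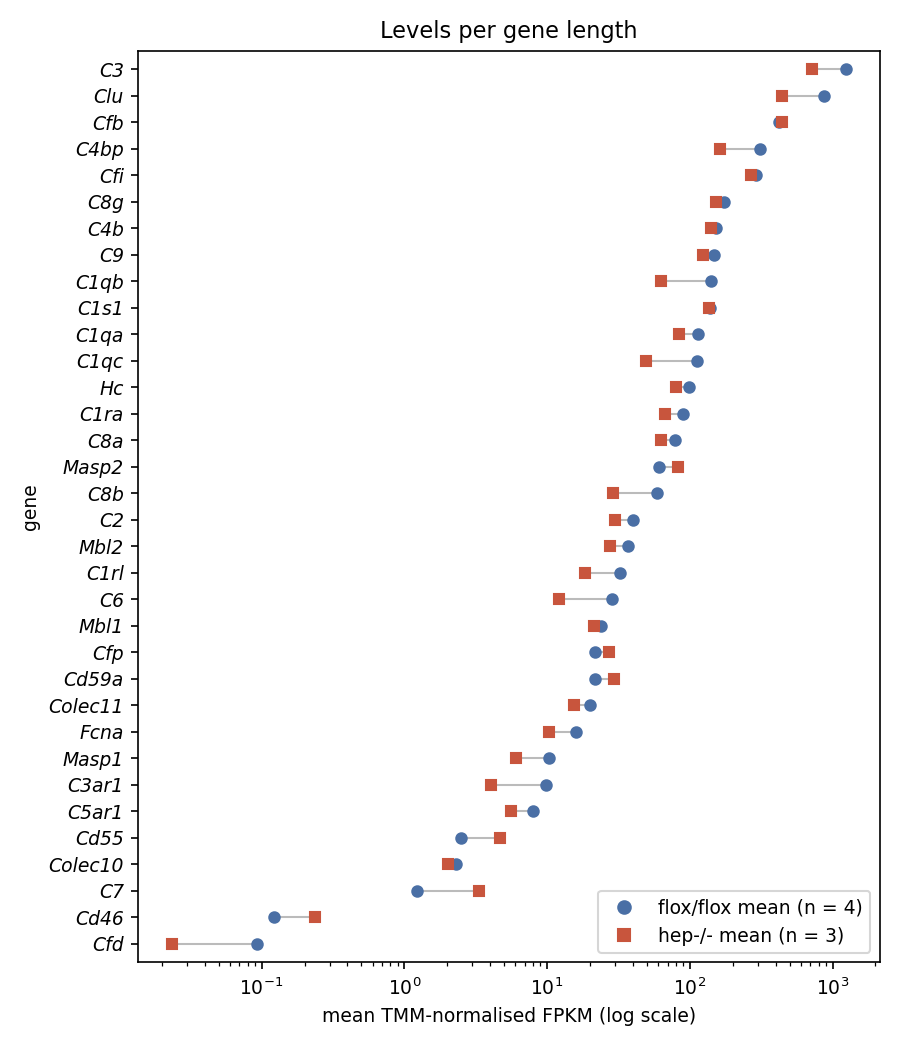
Mean level of each of the 34 genes per unit of length, as TMM-normalised FPKM on a log axis, in flox/flox (circles, n = 4) and hep-/- (squares, n = 3) livers, ordered by the flox/flox mean. *C3* leads in both groups, at 1244 and 715, and *Cfd* is last.

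Most hepatocyte-made genes had an order among the *B4galt1* hep-/- mice that the hepatocyte markers had too, all 9 markers being lowest in replicate 2 and highest in replicate 3. *C1rl*, *C8a*, *Cfb*, *Mbl1*, *Colec11* and *Masp2* were instead highest in replicate 1. *C2* and *Masp1* were lowest in replicate 1, and *Masp2* was lowest in replicate 3. Replicate 3 gave the highest *B4galt1* hep-/- value for 5 of the 6 hepatocyte-made genes that fell, *C1rl* being the exception, and for 62.1% of all genes called lower. In replicates 1 to 3 *B4galt1* was at 28.4, 23.9 and 53.7 CPM and mitochondrially encoded transcripts took 22.6, 22.1 and 14.4% of counts, so that replicate 3 was nearest to the controls in both, and the part of either in this order was not tested. Replicate 2 gave the lowest *B4galt1* hep-/- value for 17 of the 20 hepatocyte-made genes and for 39.2% of all tested genes. Averaged over the 20 genes, log2 CPM was 7.89 to 8.16 in *B4galt1* flox/flox livers and 7.62, 7.27 and 7.85 in *B4galt1* hep-/- livers, so that replicate 3 was close to the lowest control. Over the 5 macrophage-made genes it was 6.23, 6.03, 6.53 and 5.91 in *B4galt1* flox/flox livers and 5.09, 5.24 and 5.45 in *B4galt1* hep-/- livers, where all *B4galt1* hep-/- livers were further from the controls. Without *B4galt1* hep-/- replicate 3 all 10 genes were still called lower, and *Cd55* no longer passed. Without mitochondrially encoded genes 10 were again called lower, the same genes.

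Another 27 complement genes were looked at as a list, of which *C4a* had no row and 21 were tested, and 4 were called lower, where 7.83% of all tested genes were, and none higher. Without *B4galt1* flox/flox replicate 2 or 3 the calls came to 2. Their median log2 fold change was -0.65, and in 7 of the 21 all *B4galt1* hep-/- livers were below all controls, against 15.0% of all tested genes. Of the 4, 3 are leukocyte surface genes. *Itgb2* and *Itgax*, the chains of complement receptor 4, fell by 1.22 (edgeR BH-adjusted p = 0.012) and 0.87 (edgeR BH-adjusted p = 0.032) on the log2 scale. *Vsig4*, a receptor for C3b on Kupffer cells, was at 22.7, 30.9, 59.9 and 39.7 CPM in *B4galt1* flox/flox livers and 20.8, 9.71 and 18.0 CPM in *B4galt1* hep-/- livers and fell by 1.24 (edgeR BH-adjusted p = 0.0316). The macrophage markers given above were lower in the same libraries, and their part in these 3 values was not tested. The fourth, *Cpn2*, encodes a subunit of carboxypeptidase N, the plasma enzyme that trims C3a and C5a. It was at 232, 210.2, 199 and 224 CPM in *B4galt1* flox/flox livers and 103, 80.4 and 132 CPM in *B4galt1* hep-/- livers, without overlap, and fell by 1.04 (SE 0.21, edgeR BH-adjusted p = 0.0103). Its partner *Cpn1* had a log2 fold change of -0.41 and did not pass. Neither did *C5ar2*, a further receptor of C5a, at -0.69 and without overlap, the C1 inhibitor gene *Serping1*, at -0.65, nor vitronectin, *Vtn*, at -0.027.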

How the data were processed

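Liver RNA of 7 mice was profiled by RNA-seq, 1 library per mouse. Per the labels, the authors made libraries with a VAHTS kit and ran fastp, HISAT2 and HTSeq on GRCm39, and the counts they deposited are whole numbers per gene and mouse, not normalized. Versions and annotation are not given in the sources used here. The authors also deposited FPKM. In all 13374 genes that had 10 or more counts in each mouse, it equalled the count over a fixed gene length and the library total to within 8.22e-06%.

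Low genes were removed with filterByExpr (at least 10 counts, total 15), libraries were TMM-scaled, and genes were tested in edgeR (version 4.0.16, R 4.3.3) by quasi-likelihood with group as the sole term. SEs were derived from the F statistic, and p-values were adjusted over 15179 genes. The test was checked on simulated counts. P-values measure the spread between these libraries, which the labels give as separate mice. Of the 21 pairs of libraries, none agreed within sampling noise, the lowest chi-square being 58.5 when averaged over genes. Total counts of 30608271 to 39668509 limit the precision for low genes, and count limits cover counting error only.

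Members and lists were chosen with earlier results of these data known. All members are named. Values per mouse are given for called genes, C1q, the receptors, *C3*, *Hc*, *C4b*, *Cfb*, *C9*, *Mbl1*, *Mbl2* and *Fcna*, and for others added after their values were seen. The alternatives were scaling by RLE or upper quartile, the DESeq2 test (1.42.0), limma (3.58.1) on log2(FPKM + 1) or log2(FPKM + 0.1) where 3 mice had an FPKM of 1 or more, voom with sample weights, filters of 1 count in any or 10 in every mouse, removal of mitochondrial genes, a replicate block, adjusted p alone, and leaving out each mouse. Promoters are RefSeq windows on GRCm38.p6. Protein features, planned at the start, were not analysed here.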

Additional observations from a re-analysis of the deposited data

Results flagged for a closer look

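*C8g* in *B4galt1* flox/flox replicate 4, at 261 CPM, stood apart from the other 3 controls, which were at 182 to 194 CPM. The gap to the nearest was 0.845 of the range over the 4 mice, above Dixon's 95% critical value for that number. It was the only such value among the 34 genes, each looked at in the controls, and chance alone gives one in about 5% of groups.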

How the results depend on the processing

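Of 327 log2 fold changes of single genes under settings that kept all mice, 307 kept their direction and their side of the thresholds, 9 lost and 4 gained the call, and 7 turned. DESeq2, the filter of 1 count in any mouse and voom called 2 genes higher, *C7* joining *Cd55*. Both limma fits on FPKM called 0 higher and 9 of the pathway list against 4, with 15.8 and 17% of all genes lower against 7.83%. On log2(FPKM + 0.1) the median of the hepatocyte-made genes was -0.47, that of all genes -0.18, and 23.1% of all calls were higher. The replicate block called 4 genes lower (*C1qb*, *C1qc*, *C3ar1* and *C6*) against 10, and 615 lower and 652 higher over all genes against 1189 and 1215. Replicate numbers do not pair the mice, since same-numbered deviations correlated at -0.42, -0.10 and 0.09.

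With a mouse left out, 4 to 10 genes were lower, 0 to 1 higher and 2 to 4 of the pathway list called. The lower calls were 4 without *B4galt1* flox/flox replicate 2, 6 without *B4galt1* flox/flox replicate 3 or 4 and 5 without *B4galt1* hep-/- replicate 1 or 2, all of them among the 10. Over all genes, calls fell to 474 lower and 411 higher, 707 and 698, and 804 and 748 without *B4galt1* flox/flox replicates 2, 3 and 4, to 810 and 1008 without *B4galt1* hep-/- replicate 1 and to 593 and 606 without *B4galt1* hep-/- replicate 2. The hepatocyte-made median ran from -0.47 to -0.21 and the macrophage-made one from -1.28 to -0.99. With *Fcna* counted as macrophage-made, an alternative chosen after seeing the data, the latter was -0.90.

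Signs turned in 6 genes that were not called. For *C1s1* this was with upper-quartile scaling (0.0072), the block (0.033) and voom (0.053), and with a mouse left out its range was -0.11 to 0.096. *Cfb* turned on FPKM (-0.062 and -0.063 with pseudocounts of 1 and 0.1) and ranged from -0.0021 to 0.16. *Colec10* turned with voom (0.25) and ranged from -0.47 to 0.25, and *Cd46* turned with voom (-0.10) and ranged from -0.42 to 1.40. *Cfi* ranged from -0.47 to 0.14 and *Mbl1* from -0.31 to 0.014. The cause was not tested.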
